A study of Homo sapiens with 6 samples.

Results

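Histone genes were examined in poly(A)-selected RNA-seq libraries. The members were all genes of the deposited count tables whose symbols carry a histone prefix (HIST, H1F, H2AF, H3F, H1-, H2AC, H2BC, H2AZ, H2AX, H3C, H3-, H4C or H4-). That rule found 79 of 19923 genes, of which 69 are replication-dependent cluster genes and 10 are polyadenylated variant genes. By family the 79 genes comprised 10 H1, 19 H2A, 17 H2B, 18 H3 and 15 H4 genes. The rule reads symbols only, and the gene group itself was picked with earlier results of these data known.

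The libraries came from Kelly cells, an established MYCN-amplified human neuroblastoma line of wild-type genotype. All cells were transfected with siRNA by lipofection and harvested after 72 h. The groups were siControl (a control siRNA, 3 libraries) and siMETTL3 (siRNA against METTL3, 3 libraries), and no other treatment separates them in the labels. METTL3 is the catalytic subunit of the enzyme that writes N6-methyladenosine on mRNA.

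Cells make the bulk of their histones during S phase, when new DNA has to be packed into nucleosomes. The replication-dependent genes that supply them lie in clusters, mostly lack introns, and are the one class of animal mRNA that normally ends in a conserved stem-loop instead of a poly(A) tail. The stem-loop is bound by SLBP and cut with the help of the U7 small nuclear ribonucleoprotein, and the mRNA is degraded when DNA synthesis stops. Variant histone genes such as H2AZ1 or H3-3B are expressed throughout the cell cycle and give ordinary polyadenylated mRNAs, and H2AX is known to yield mRNA with either end.

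Since poly(A) selection acts on the 3′ end, the stem-loop was looked up in the genome for each member. The sequences below show the most common form, the 3 called genes that fell furthest (H2AC4, H1-3 and H2BC11), genes that were not called (H2BC14 and H4C5), the 2 common H4 forms in genes that fell (H4C4 and H4C9), and the one variant gene with the element. They are read 5′ to 3′ on the gene's strand of GRCh38, capitals mark the 16 bases of the stem-loop (6-base arms around a 4-base loop), and 5 flanking bases on each side are in lower case.
H1-5 (chr6:27866797-27866812, minus strand): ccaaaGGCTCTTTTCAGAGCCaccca
H2AC4 (chr6:26033098-26033113, minus strand): gcaaaGGCTCTTTTCAGAGCCaccta
H1-3 (chr6:26234217-26234232, minus strand): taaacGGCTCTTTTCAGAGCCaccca
H2BC11 (chr6:27132321-27132336, minus strand): ctaacGGCTCTTTTAAGAGCCaccca
H2BC14 (chr6:27815469-27815484, plus strand): ccaaaGGCTCTTTTCAGAGCCgtcca
H4C4 (chr6:26188715-26188730, minus strand): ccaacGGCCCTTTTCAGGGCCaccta
H4C5 (chr6:26205001-26205016, plus strand): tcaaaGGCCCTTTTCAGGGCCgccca
H4C9 (chr6:27139654-27139669, plus strand): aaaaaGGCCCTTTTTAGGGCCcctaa
H2AX (chr11:119094898-119094913, minus strand): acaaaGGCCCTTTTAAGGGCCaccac

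The search used the histone stem-loop consensus (GG, 3 free bases, TT, 1 free base, T, 1 free base, A, 3 free bases, CC) on the gene's strand within 100 bases after the stop codon, with at most 1 mispair between the arms. It found the element in 68 of 68 cluster genes with an annotated stop codon, 22 to 67 bases after it (median 35). Among the 10 variant genes it found 1, in H2AX. Of the 18909 other genes with a stop codon, 3 (0.0159%) had a match, namely INSC, KNDC1 and RD3L. A wider search, from the gene start to 100 bases past the gene end, matched 69 of 69 cluster genes and 1 of 10 variant genes. It also matched 2555 of 19831 other genes (12.9%). The form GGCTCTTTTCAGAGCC was present in 38 cluster genes of the H1, H2A, H2B and H3 families. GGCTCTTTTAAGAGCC was present in 10 genes of H1, H2A, H2B and H3. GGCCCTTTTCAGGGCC was present in 10 cluster genes and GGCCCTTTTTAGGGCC in 4, all of them H4 genes. The remaining 6 cluster genes each had a form of their own. The hexamer AATAAA, the usual polyadenylation signal, was present on the gene's strand in the last 100 bases of the counted span in 20 of 69 cluster genes (29.0%), in 5 of 10 variant genes and in 61.1% of all genes. In 32 cluster genes the counted span ends before the stem-loop, so the sequence past it was not searched for AATAAA. The share of cluster genes is therefore not directly comparable with that of all genes. These matches are descriptions of sequence and do not show which 3′ end was used.

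Per library the tables held 15430000 to 21565013 counts, and 17132 to 17476 genes had a count. METTL3 was lower in siMETTL3 (33.04 ± 1.27 CPM against 54.2 ± 1.80, SD, n = 3 each; log2 fold change -0.71, SE 0.0696, edgeR FDR 4.68e-06). METTL3 overlaps TOX4 in the annotation, and reads over the overlap were counted for both genes. CPM is the count divided by the scaled library total and multiplied by 1000000, and FDR is the Benjamini-Hochberg adjusted p of edgeR's quasi-likelihood test over all 15311 tested genes. A gene is called at an FDR under 0.05. The noradrenergic markers HAND2, GATA3, DBH, TH and MYCN were between 119 and 4743 CPM in every library, and all 5 were called higher in siMETTL3. Their log2 fold changes were 1.52 for TH (182 ± 24.9 CPM in siControl and 520.3 ± 37.4 in siMETTL3, SD, n = 3 each; edgeR FDR 1.89e-07), 0.62 for MYCN (FDR 5.17e-06), 0.48 for HAND2 (FDR 1.91e-05), 0.36 for DBH (FDR 0.00234) and 0.24 for GATA3 (FDR 0.00657). The fibroblast markers COL1A2, DCN and LUM and the leukocyte markers PTPRC and CD3E did not exceed 0.400 CPM, EPCAM lay between 5.05 and 6.997 CPM, and KRT5 was at 0. COL1A1 was low but called higher in siMETTL3 (2.96 ± 1.27 CPM in siControl and 5.26 ± 0.471 in siMETTL3, SD, n = 3 each; log2 fold change 0.86, edgeR FDR 0.0200). The part of these marker changes in the histone results was not tested. The labels do not say whether the replicates were separate cultures, so the p-values measure only the spread between these libraries.

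Cluster genes were abundant in these poly(A)-selected libraries. They took 0.771, 0.861 and 0.934% of all counts in siControl replicates 1, 2 and 3, and 0.575, 0.577 and 0.556% in siMETTL3 replicates 1, 2 and 3. Variant genes took 0.127, 0.138 and 0.142% in siControl and 0.117, 0.118 and 0.119% in siMETTL3. In both classes all siMETTL3 libraries lay below all siControl libraries, and the gap was wider for the cluster genes. The number of cluster counts per variant count was 6.06, 6.24 and 6.59 in siControl (mean 6.30, SD 0.267) and 4.93, 4.90 and 4.65 in siMETTL3 (mean 4.83, SD 0.155). These sums over chosen genes were not tested.

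Levels of different genes were compared per kilobase of the canonical transcript. The counts themselves cover the whole gene span, introns and overlapping genes included, so reads outside the transcript can raise these levels. The median level was 188 CPM per kb over 61 tested cluster genes, with a range from 0.914 to 683. It was 89.5 CPM per kb over the 8 tested variant genes and 9.91 over all 14592 tested genes with such a transcript. Of the cluster genes, 49 were in the top 10% of all these genes and 23 in the top 1%. The highest cluster level was that of H1-5, a linker histone, and the highest variant level was that of H2AZ1 (273.6 CPM per kb). Per kilobase of the counted span, the median was 136 CPM per kb over 62 tested cluster genes. It was 32.0 over the 8 tested variant genes and 0.864 over all 15311 tested genes. By that measure 52 cluster genes were in the top 10% and 40 in the top 1%. Cluster genes therefore made up most histone reads although the selection was for poly(A), and from gene counts alone a polyadenylated histone mRNA and a carried-over stem-loop mRNA cannot be told apart.

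**Figure D1:**
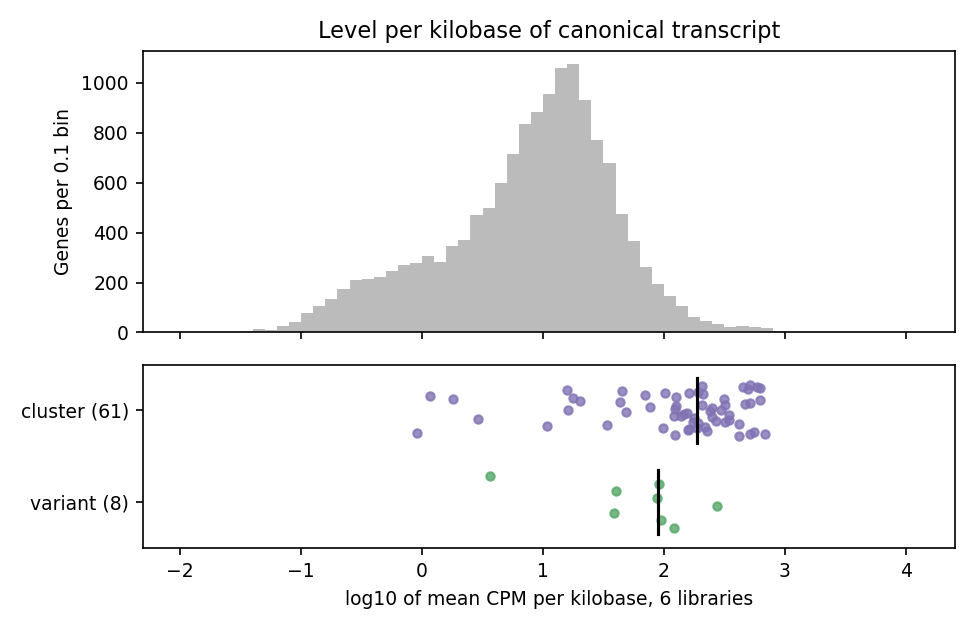
Level per kilobase of canonical transcript (log10 of the mean CPM per kb over 6 libraries, horizontal axis) for all tested genes (grey histogram, number of genes per bin of 0.1) and for the 61 cluster and 8 variant genes (points, spread vertically for display only; black lines, medians). Most cluster genes sit at the right end of the distribution, with a median of 188 CPM per kb against 9.91 for all genes.

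Not all members were measurable. Of the 69 cluster genes 62 passed the filter on low counts, as did 8 of the 10 variant genes. H2BC3 had 7 to 20 counts per library, and H4C6, H4C7, H3-4, H1-1 and H2AC1 had 10 or fewer. The testis histone gene H2BC1 and the variant H1-7, a spermatid linker histone, had 0 counts in all 6 libraries, which allows up to 0.138 to 0.199 CPM at 3 counts per library. H1-8, the oocyte linker histone, had 1 to 9 counts.

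Most cluster genes fell in siMETTL3. The summed cluster level was 7696, 8649 and 9567 CPM in siControl and 5720.5, 5719 and 5513 CPM in siMETTL3, which is 65.4% of the siControl mean. All siMETTL3 libraries were below the lowest siControl library, and siControl replicates differed more among themselves than siMETTL3 replicates did. Of the 62 tested genes, 49 (79.0%) were called lower and 0 higher. Over all tested genes 2937 (19.2%) were called lower and 2849 (18.6%) higher. The median log2 fold change was -0.58 over the cluster genes and -0.00 over all tested genes. No cluster gene was higher at an unadjusted p under 0.05 in edgeR either, DESeq2 called 0 higher, and limma-voom called 1, H2BC14. In bulk RNA, fewer cells in S phase and less histone mRNA per cell cannot be told apart.

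Groups without overlap gave the same picture as the calls. All 3 siMETTL3 libraries lay below all 3 siControl libraries for 48 of the 62 cluster genes, against 3844 (25.1%) of all tested genes. In 14 cluster genes the groups overlapped, and in 0 all siMETTL3 libraries lay above (24.8% of all tested genes). The log2 fold changes of the 49 lower calls ran from -1.08 to -0.18, and 4 of the 62 genes had a log2 fold change of -1 or less (H2AC4, H1-3, H2BC11 and H3C8, of which H3C8 was not called).

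**Figure D2:**
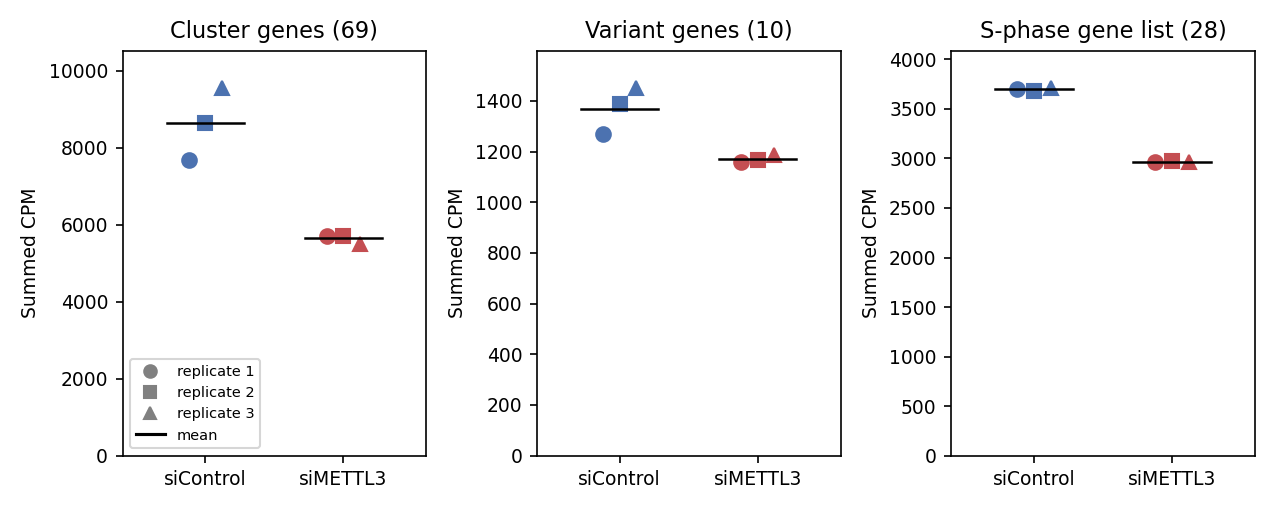
Summed CPM of the 69 cluster genes, the 10 variant genes and a 28-gene S-phase list in each library (vertical axes from 0; circle, square and triangle, replicates 1, 2 and 3; black line, group mean). The siMETTL3 libraries are below every siControl library in all 3 panels, at 65.4%, 85.4% and 80.2% of the siControl mean.

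The linker histones of the cluster, which bind the DNA between nucleosomes, included H1-5 and H1-4, the cluster genes with the highest mean CPM in each group, a ranking that does not adjust for transcript length. H1-5 (chromosome 6, 27866849-27867529, minus strand) was at 619, 678 and 718 CPM in siControl and at 405, 432 and 417 CPM in siMETTL3. The groups stood clearly apart, with a log2 fold change of -0.68 (SE 0.0637, edgeR FDR 3.14e-06). H1-4 was at 452, 497 and 558 CPM in siControl and at 299.6, 328 and 309 CPM in siMETTL3. Its lowest siControl library was above the highest siMETTL3 library, and its log2 fold change was -0.69 (SE 0.0737, FDR 1.13e-05). H1-2 was at 361, 372 and 441 CPM in siControl and at 209, 231 and 228.3 CPM in siMETTL3. It also had no overlap, with a log2 fold change of -0.81 (SE 0.0761, FDR 4.13e-06).

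H1-3 fell most among the linker histones. It was at 119, 135 and 135 CPM in siControl and at 59.4, 66.4 and 62.0 CPM in siMETTL3. Every siMETTL3 value was well under every siControl value, and the log2 fold change was -1.05 (SE 0.0694, FDR 1.40e-07). The testis linker gene H1-6 was near the limit of measurement, at 0.814 ± 0.136 CPM in siControl and 0.510 ± 0.152 in siMETTL3 (SD, n = 3 each; edgeR FDR 0.210). In all, 4 of 5 tested H1 cluster genes were called lower, and their summed level in siMETTL3 was 59.9% of siControl.

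H2A, which pairs with H2B in the nucleosome core, was the only family in which every tested cluster gene was called lower. In H1, H3 and H4 every tested cluster gene also had a negative log2 fold change, but not all were called. All 15 tested cluster H2A genes were called lower (median log2 fold change -0.78), with a summed level at 59.6% of siControl. H2AC4 (chromosome 6, 26033176-26033568, minus strand) was at 115, 130.3 and 129 CPM in siControl and at 59.8, 58.6 and 58.3 CPM in siMETTL3. The siMETTL3 libraries were nearly equal, and the log2 fold change of -1.08 (SE 0.0636, FDR 4.52e-08) was the strongest lower call of all cluster genes. H2AC7 was at 158, 194 and 196 CPM against 93.2, 95.4 and 93.1 CPM, a log2 fold change of -0.96 (SE 0.0763, FDR 9.40e-07). H2AC20 was at 230.1, 283 and 287 CPM against 156, 152 and 134 CPM, a log2 fold change of -0.86 (SE 0.0858, FDR 1.12e-05). Neither gene's groups overlapped.

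The other H2A genes named by level or by FDR gave the same direction. H2AC15 was at 56.3, 65.7 and 64.5 CPM in siControl and 34.5, 36.5 and 34.8 CPM in siMETTL3 (log2 fold change -0.82, SE 0.0756, FDR 3.02e-06). H2AC8 was at 205, 216 and 245 CPM in siControl and 136, 134 and 128 CPM in siMETTL3 (log2 fold change -0.74, SE 0.0678, FDR 2.78e-06). H2AC11, the most abundant cluster H2A gene, was at 289, 351 and 368 CPM in siControl and 222, 218 and 201 CPM in siMETTL3 (log2 fold change -0.65, SE 0.0822, FDR 6.46e-05). In each of these genes the highest siMETTL3 library was below the lowest siControl library. H2AC7 shares its span with AL031777.2 and H2AC15 with H2BC15, and reads over such overlaps were counted for both genes.

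H2B genes were the most divided family. Of 15 tested cluster H2B genes 10 were called lower and 5 were not called (median log2 fold change -0.40). H2BC11 (chromosome 6, 27125897-27132750, minus strand) was at 100.2, 111 and 132 CPM in siControl and at 53.5, 54.5 and 58.4 CPM in siMETTL3. Its groups stood apart, with a log2 fold change of -1.04 (SE 0.0897, FDR 3.20e-06). H2BC14 (chromosome 6, 27815044-27815424, plus strand) was at 41.0, 43.6 and 63.1 CPM in siControl and at 65.0, 69.8 and 56.2 CPM in siMETTL3. Its groups overlapped because of siControl replicate 3, and the log2 fold change was 0.38 (SE 0.166, FDR 0.115). Without siControl replicate 3 the value was 0.59 (FDR 7.72e-07), and H2BC14 was also called higher by limma-voom (FDR 0.0216) and by edgeR without its robust option (FDR 0.0407).

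The other uncalled H2B genes lay close to no change or were scarce. H2BC18 was at 67.2, 70.2 and 86.9 CPM in siControl and at 81.3, 82.1 and 69.2 CPM in siMETTL3 (log2 fold change 0.06, SE 0.0970, FDR 0.685), and without siControl replicate 3 it was called higher (0.17, FDR 0.0464). Its counted span of 29685 bases overlaps FCGR1A, and 74.0% of its 50-base words occur elsewhere in the genome. H2BC13 was at 60.2, 58.9 and 72.5 CPM against 63.1, 59.3 and 57.9 CPM (log2 fold change -0.08, SE 0.0803, FDR 0.447). H2BC6 had a log2 fold change of -0.18 (FDR 0.390) at 7.56 CPM over all libraries, and H2BC10 one of 0.31 (FDR 0.460) at 1.40 CPM. H2BC14, H2BC18, H2BC13 and the H4 gene H4C8 were named after their values were seen, because they depart from the rest of the group.

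**Figure D3:**
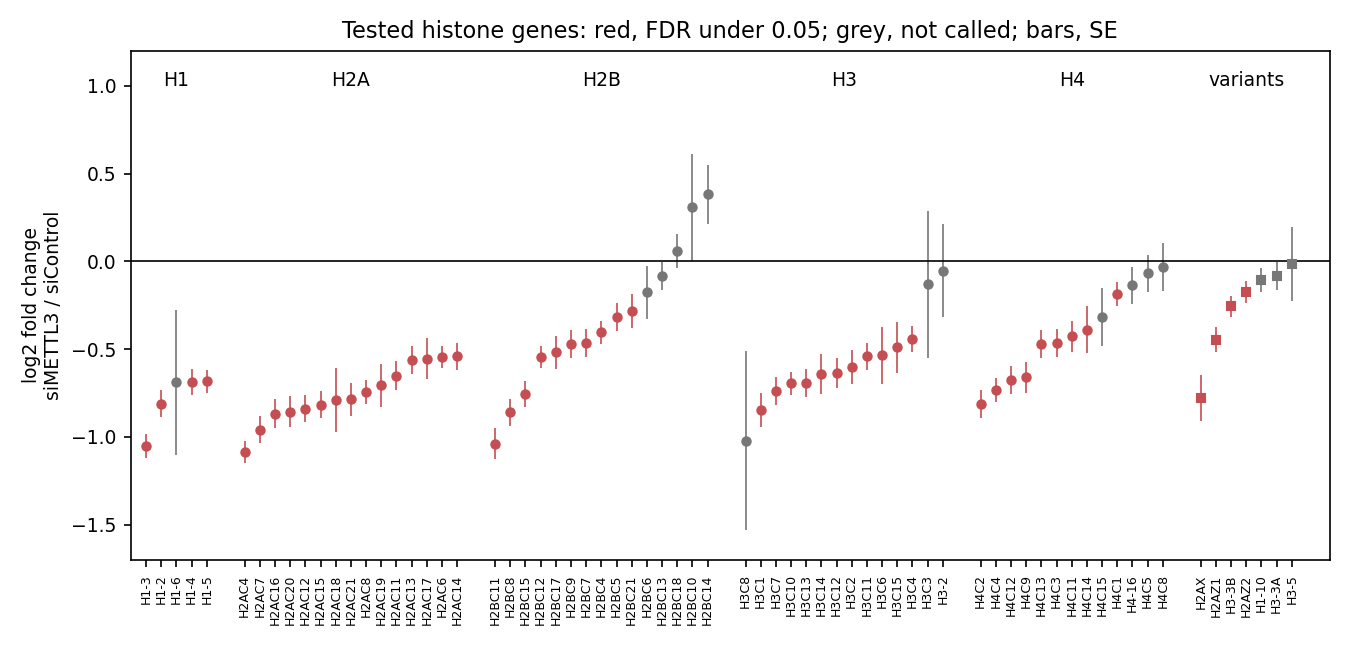
Log2 fold change (siMETTL3 over siControl) of each tested cluster gene by family and of 7 tested variant genes (circles, cluster; squares, variants; bars, SE; red, edgeR FDR under 0.05; grey, not called). All 15 H2A genes are below 0 and called, while H2B ranges from -1.04 (H2BC11) to 0.38 (H2BC14).

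H3 carries most of the modified tail positions studied in chromatin, and 11 of its 14 tested cluster genes were called lower (median log2 fold change -0.62, summed level 64.7% of siControl). H3C2 was at 330.1, 379 and 454 CPM in siControl and at 266, 252 and 247 CPM in siMETTL3. The siControl libraries were spread widely but stayed above siMETTL3, and the log2 fold change was -0.60 (SE 0.0965, FDR 0.000595). H3C12 was at 251, 296 and 334 CPM against 197, 186 and 183 CPM (log2 fold change -0.64, SE 0.0869, FDR 0.000135). Its counted span overlaps the H2A gene H2AC17, and reads over the overlap were counted for both genes. H3C13 was at 255, 331 and 309 CPM against 187, 187 and 179.6 CPM (log2 fold change -0.69, SE 0.0810, FDR 3.34e-05). H3C13 is less certain as a single gene, since 72.1% of its 50-base words occur elsewhere. The uncalled H3 genes H3C8, H3C3 and H3-2 were all scarce, with mean levels of 0.571, 0.876 and 3.10 CPM over the 6 libraries.

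Most H4 genes encode one and the same protein, and 9 of 13 tested genes were called lower (median log2 fold change -0.43). H4C4 was at 209, 222 and 247 CPM in siControl and at 129, 138 and 141 CPM in siMETTL3 (log2 fold change -0.73, SE 0.0674, FDR 2.97e-06). H4C3 was at 255.5, 296 and 332 CPM in siControl and at 216, 204 and 219.9 CPM in siMETTL3 (log2 fold change -0.47, SE 0.0817, FDR 0.000752). Neither gene's groups overlapped. H4C5 (chromosome 6, 26204552-26206038, plus strand) was as abundant but differed in this respect. It was at 216, 238 and 291 CPM in siControl and at 259, 233 and 218 CPM in siMETTL3, so the groups overlapped. Its log2 fold change was -0.07 (SE 0.105, FDR 0.659), and it was the only one of the 10 most abundant cluster genes that was not called.

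H4C8 resembled H4C5. It was at 70.9, 78.0 and 107.6 CPM in siControl and at 83.7, 84.0 and 82.3 CPM in siMETTL3 (log2 fold change -0.03, SE 0.138, FDR 0.888), and without siControl replicate 3 it was called higher (0.16, FDR 0.0367). H4-16, the single cluster-type gene on chromosome 12, was at 25.7, 29.9 and 35.2 CPM against 26.2, 28.7 and 27.3 CPM (log2 fold change -0.14, SE 0.105, FDR 0.330), and without siControl replicate 1 it was called lower (-0.24, FDR 0.0457). H4C15 was at 6.88 ± 0.105 CPM in siControl and 5.52 ± 1.103 in siMETTL3 (SD, n = 3 each; edgeR FDR 0.146). H4C15 and H4C14 are less certain as single genes, because all 50-base words of their canonical transcripts occur elsewhere. Counting of reads that map to several places was not asked for, so such genes can lose reads. The same holds for the pairs H3C14 and H3C15 and H2AC18 and H2AC19.

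**Figure D4:**
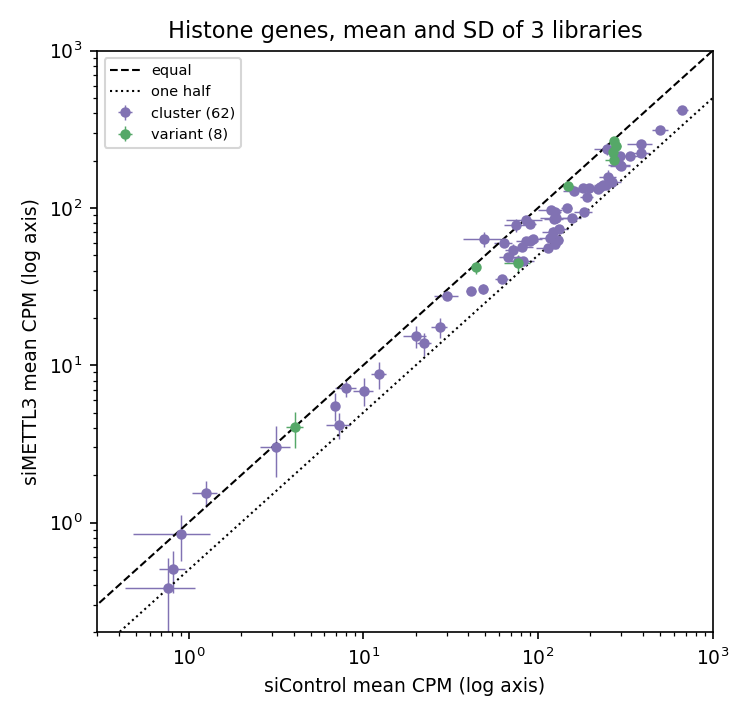
Mean CPM in siMETTL3 against mean CPM in siControl for the 62 tested cluster and 8 tested variant genes (both axes logarithmic; bars, SD of 3 libraries; dashed line, equal levels; dotted line, log2 fold change of -1). Most cluster genes lie between the lines, and the variant genes other than H2AX lie near the line of equal levels or between it and the main band of cluster genes.

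The 5 cluster genes with the highest FDR among the lower calls were H4C1, H2BC21, H4C14, H3C6 and H3C15. H4C1 was at 83.3, 87.1 and 98.7 CPM in siControl and at 80.5, 79.4 and 76.6 CPM in siMETTL3 (log2 fold change -0.18, FDR 0.0489). H2BC21 was at 102.6, 115 and 139 CPM in siControl and at 98.4, 102.8 and 91.6 CPM in siMETTL3 (log2 fold change -0.28, FDR 0.0365). H4C1 lost its call without siControl replicate 2 (FDR 0.0873) or 3 (0.1398) and without siMETTL3 replicate 1 (0.1003), 2 (0.1099) or 3 (0.160). H2BC21 lost it without siControl replicate 2 (0.0674) and without siMETTL3 replicate 1 (0.0909), 2 (0.0578) or 3 (0.133). The low-count genes H4C14, H3C15 and H3C6 also lost their calls when single libraries were left out. H4C14 did so without siControl replicate 1 (0.0845) or 2 (0.119) and without siMETTL3 replicate 2 (0.144) or 3 (0.136). H3C15 did so without siControl replicate 2 (0.0905) and without siMETTL3 replicate 2 (0.0643) or 3 (0.0890), and H3C6 without siControl replicate 2 (0.0580) and without siMETTL3 replicate 1 (0.0707) or 2 (0.0946).

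Lower calls were present at each main locus. In the first group of genes on chromosome 6, 21 of 28 tested genes were lower (median log2 fold change -0.58). The second group had 5 of 5 lower (-0.66) and the third 14 of 16 (-0.56). In the main group on chromosome 1, 9 of 12 were lower (-0.57). Genes whose 50-base words do not occur elsewhere gave 20 of 27 lower with a median of -0.64, so the direction was also present where reads could be placed uniquely. Among cluster genes free of any overlap 38 of 49 were lower (-0.56).

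The counted spans differ among cluster genes, and the counts by span are given here without a test. In 32 cluster genes the stem-loop lies outside the counted span, beyond its 3′ end, and 24 of the 26 tested ones were lower (median log2 fold change -0.68). In 33 genes it lies inside, so that the span continues past the stem-loop, by a median of 1154 bases and at most 29196. Of these, 23 of 32 tested genes were lower (-0.51). For H4C5 the span continues for 1022 bases past the stem-loop shown above, for H4C8 for 7522 bases and for H2BC18 for 29196 bases. H2BC11, which fell, has 6424 bases past its stem-loop, and H2BC14, which was not called, has its stem-loop outside the span. Genes with AATAAA near the span's end had 14 of 20 lower (-0.48), and those without had 35 of 42 lower (-0.67). The AATAAA search ended with the counted span, before the stem-loop in the 32 genes above, so this split is not separate from the one by span. How reads past the stem-loop contribute to these counts was not tested.

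The variant class was small, and the classes were not tested against each other. Of the 8 tested variant genes 4 were called lower, against 19.2% of all tested genes, and 0 higher, against 18.6%. The count of higher genes was also 0 at an unadjusted p under 0.05 in edgeR and by DESeq2 and limma-voom. The median log2 fold change was -0.14 over all 8 and -0.11 over the 7 genes other than H2AX. Their summed level was 1269.8, 1386 and 1453 CPM in siControl and 1159, 1166 and 1185 CPM in siMETTL3. That is 85.4% of siControl, and 87.1% without H2AX.

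H2AX, whose phosphorylated form marks DNA breaks, is the variant gene with a stem-loop. On chromosome 11 (119093854-119095467, minus strand) it was at 61.8, 85.5 and 84.4 CPM in siControl and at 44.8, 50.5 and 39.4 CPM in siMETTL3. The groups did not overlap, and its log2 fold change of -0.78 (SE 0.133, FDR 0.00160) was the most negative of the variant genes and below the cluster median. H2AZ1, an H2A variant found at promoters (chromosome 4, 99948086-99950355, minus strand), was at 242, 276 and 301 CPM in siControl and at 207, 191 and 204 CPM in siMETTL3. It fell by 0.45 on the log2 scale, without overlap (SE 0.0740, FDR 0.000406).

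The remaining variant calls were smaller. H3-3B, one of the genes for the replacement histone H3.3 (chromosome 17, 75776434-75785893, minus strand), was at 248, 279.7 and 282 CPM in siControl and at 221, 225 and 231 CPM in siMETTL3 (log2 fold change -0.26, SE 0.0609, FDR 0.00460). It overlaps the gene UNK. H2AZ2, the second H2A.Z gene (chromosome 7, 44826791-44848083, minus strand), was at 261, 281 and 300.2 CPM against 243, 245 and 258 CPM (log2 fold change -0.18, SE 0.0619, FDR 0.0376). The H2AZ2 groups are separated by a narrow gap, and its call was lost without siControl replicate 2 (FDR 0.1103) and without siMETTL3 replicate 1 (0.152), 2 (0.128) or 3 (0.0623).

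The remaining tested variants were not called. H1-10 (chromosome 3, 129314771-129316286, minus strand), a replication-independent linker histone, was at 135, 157 and 153 CPM against 130.5, 145 and 138 CPM (log2 fold change -0.11, SE 0.0678, FDR 0.237), and without siControl replicate 1 it was called lower (-0.17, FDR 0.0316). Its groups overlapped. H3-3A, the other H3.3 gene (chromosome 1, 226061851-226073212, plus strand), was at 45.0, 42.6 and 45.7 CPM against 46.2, 40.1 and 39.5 CPM (log2 fold change -0.08, SE 0.0781, FDR 0.438), and 93.02% of its 50-base words occur elsewhere. H3-5 (chromosome 12, 31791185-31792298, minus strand) was scarce, at 3.89, 4.55 and 3.72 CPM against 4.18, 4.96 and 2.92 CPM (log2 fold change -0.01, SE 0.212, FDR 0.966).

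**Figure D5:**
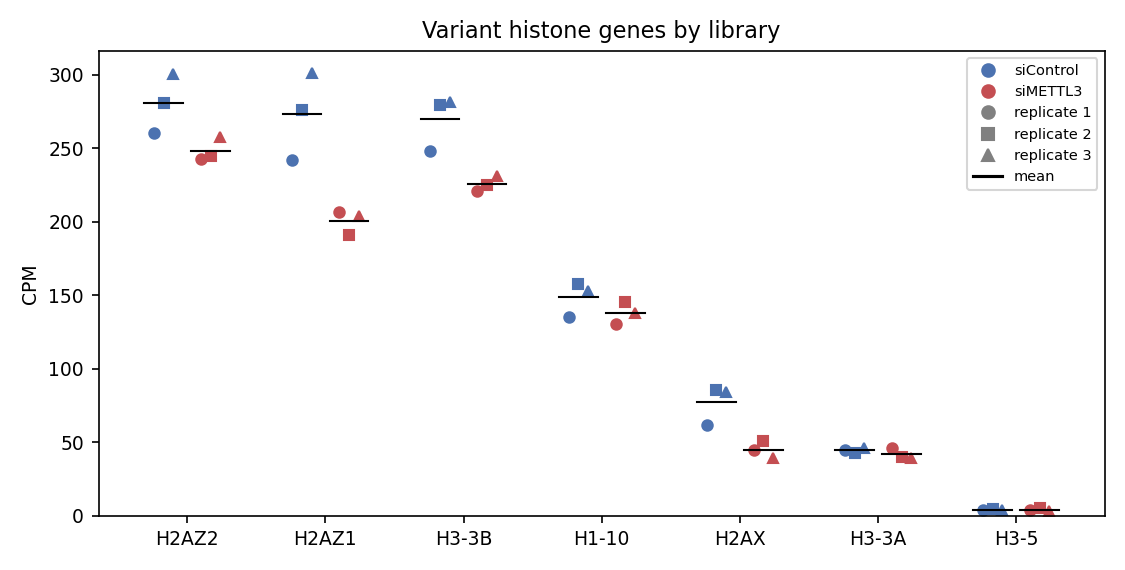
CPM of 7 tested variant histone genes in each library (vertical axis from 0; blue, siControl; red, siMETTL3; circle, square and triangle, replicates 1, 2 and 3; black line, group mean). The groups separate for H2AZ2, H2AZ1, H3-3B and H2AX and overlap for H1-10, H3-3A and H3-5.

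The siControl libraries differed among themselves in cluster genes. Among the 62 tested cluster genes siControl replicate 3 was the highest siControl library for 47 (75.8%, against 37.6% of all tested genes), and siControl replicate 1 was the lowest for 52 (83.9%, against 35.6%). These shares were not tested. The median coefficient of variation over 50 cluster genes at 20 CPM or more was 11.8% in siControl and 3.96% in siMETTL3. Over all 9543 tested genes at that level it was 6.37% and 4.03%. Leaving out each library in turn gave 44 to 49 lower cluster calls and a median log2 fold change from -0.64 to -0.52.

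Genes that work on histone mRNA were called in both directions. Of 20 tested genes for transcription, 3′ processing, export or decay of replication-dependent histone mRNA, 3 were called higher and 2 lower (median log2 fold change 0.01). Over all tested genes the shares were 18.6% higher and 19.2% lower, so neither count exceeds the background. SLBP, which binds the stem-loop, was at 30.9, 32.8 and 33.5 CPM in siControl and at 29.7, 28.9 and 29.9 CPM in siMETTL3. These groups did not overlap, but the difference was not called (log2 fold change -0.13, SE 0.0764, FDR 0.186). NPAT, the transcriptional coactivator of the clusters, was at 65.9, 60.5 and 63.2 CPM against 69.1, 61.7 and 73.1 CPM (log2 fold change 0.10, SE 0.0724, FDR 0.284). NPAT overlaps ATM in the annotation.

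CTIF, a translation factor that acts with the nuclear cap-binding complex, was the most significant of the higher calls on that list, at 136 ± 15.2 CPM in siControl and 185 ± 4.63 in siMETTL3 (SD, n = 3 each; log2 fold change 0.44, edgeR FDR 0.000381). SYMPK, the scaffold of the cleavage complex, rose by 0.32 (FDR 0.000816) and ZNF473, a U7-associated zinc finger protein whose gene overlaps VRK3, by 0.44 (FDR 0.00112). CSTF2 (-0.27, FDR 0.0236) and NCBP1 (-0.21, FDR 0.0493) were lower. CSTF2 lost its call without siControl replicate 2 (FDR 0.0716) and without siMETTL3 replicate 2 (0.1009) or 3 (0.0944), and NCBP1 lost it in 5 of the 6 fits that left out 1 library (0.0591 to 0.211). The lower calls on this list thus numbered 0 without siControl replicate 2 and without siMETTL3 replicate 2 or 3. They numbered 1 without siControl replicate 3 and without siMETTL3 replicate 1, and 4 without siControl replicate 1.

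The general cleavage and polyadenylation machinery had 2 of 16 genes higher and 5 lower (median log2 fold change 0.01), beside 18.6% higher and 19.2% lower over all tested genes. CPSF1, the largest subunit of the cleavage and polyadenylation specificity factor, fell by 0.65 on the log2 scale (FDR 3.92e-06) and shares reads with ADCK5. PCF11 rose by 0.26 (FDR 0.00572) and PABPN1, the nuclear poly(A)-binding protein, by 0.20 (FDR 0.0189). CPSF6 (-0.24, FDR 0.00591) and CSTF2T (-0.29, FDR 0.00615) were lower. PABPN1 lost its call without siControl replicate 2 (0.1123) and without siMETTL3 replicate 2 (0.0870) or 3 (0.0622). The higher calls on this list numbered 1 in each of those fits, the lower calls 3 without siControl replicate 2 and without siMETTL3 replicate 1 or 2, and DESeq2 called 3 lower. PABPN1 overlaps BCL2L2-PABPN1, and CSTF2T overlaps PRKG1.

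Of 30 histone chaperone and exchange genes 6 were higher and 10 lower (median log2 fold change -0.08), and the lower calls numbered 6 when siControl replicate 2 or when siMETTL3 replicate 1 or 3 was left out. In the fit of all libraries 18.6% of all tested genes were called higher, close to the count of higher genes. The lower share was 33.3% on this list and 19.2% over all tested genes. In the fits with 6 lower calls, 14.4% (without siControl replicate 2), 13.7% (without siMETTL3 replicate 1) and 14.9% (without siMETTL3 replicate 3) of all genes were lower. These shares were not tested. The lower ones include genes that handle histones at the replication fork, namely MCM2 (-0.44, FDR 3.88e-05), SSRP1 (-0.30, FDR 0.000993) and TONSL (-0.36, FDR 0.00127). The higher ones include EP400 (0.31, FDR 0.000621) and INO80 (0.38, FDR 0.00172), ATPases of complexes that exchange H2A.Z, and CENPA (0.30, FDR 0.00136), the centromeric H3 variant, whose gene overlaps SLC35F6.

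S-phase genes moved in the same direction as the cluster genes and are given beside them for that reason. Of 28 tested S-phase genes 18 were called lower and 0 higher, and 0 were higher at an unadjusted p under 0.05 in edgeR, by DESeq2 or by limma-voom. Over all tested genes 19.2% were called lower and 18.6% higher. Leaving out 1 library gave 14 to 19 lower and 0 higher calls on the S-phase list. Their median log2 fold change was -0.28 and their summed level in siMETTL3 was 80.2% of siControl. PCNA, the sliding clamp of DNA polymerase, had a log2 fold change of -0.64 (FDR 6.16e-06). The helicase genes MCM4 and MCM7 had -0.55 (FDR 8.08e-06) and -0.50 (FDR 1.47e-05), and MCM7 overlaps AP4M1. The S-phase sums ran from 3678 to 3715 CPM in siControl and from 2959 to 2976 CPM in siMETTL3, so they did not show the spread among siControl libraries that the cluster genes showed. The part of S-phase gene levels in the histone result was not tested.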

How the data were processed

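Per the labels' protocols, poly(A) RNA was selected and made into libraries. The deposited values are raw read counts per gene. Counting was done by the authors with featureCounts 1.5.3 on GENCODE 33 gene spans, introns included, per the file headers, counting a read for every gene it overlaps, with no strand, multi-mapping or read-pair option. The submitters' processing notes also name FastQC 0.11.5, Trimmomatic 0.36 and HISAT2 2.1.0. Of 79 members 14 overlap another gene. Reads that map to several places were not asked for, so near-identical histone genes can lose reads, and antisense or neighbouring transcripts can add to long spans.

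Counts were analysed in R 4.3.3 with edgeR 4.0.16: filterByExpr kept 15311 genes, scaling was by TMM, and siMETTL3 was compared with siControl over all 6 libraries without covariates by the robust quasi-likelihood test, with Benjamini-Hochberg adjustment over all tested genes and a threshold of 0.05. SE is the log2 fold change over the root of its F statistic. CPM uses the TMM-scaled totals. The totals of 15430000 to 21565013 counts limit only the scarcest members.

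Sequences were read from GRCh38 at GENCODE 44 stop codons, the build of the counted spans by comparison of coordinates. A gene's 50-base words were searched on both strands of the genome, and 50 is a chosen length, since the read length is not given in the sources used here. Of 79 members 78 matched a canonical transcript by symbol (H4-16 as H4C16).

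Members and gene lists were chosen with earlier results of these data known, and the genes named are those fixed by rule: the tested variant genes, the 10 most abundant cluster genes, up to 8 cluster genes and 3 genes of each other list per direction by FDR, SLBP, NPAT and METTL3. Some genes that the rule gives are left out of the text and figures and not reported here by name. Lists were described, not tested. The fit was checked on 5 draws of simulated counts in which 200 of 15311 genes were changed 2-fold. On average 87.9% of the changed genes were called, and 6.86% of the calls were false, above the threshold of 0.05. In the data 37.8% of genes were called, a larger share than was changed in the simulation. The 16 alternatives comprised other scalings and filters, DESeq2 1.42.0, limma-voom (limma 3.58.1), a replicate block and each library left out.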

Additional observations from a re-analysis of the deposited data

How the results depend on the processing

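Of the 49 cluster genes called lower, 44 were called lower in every alternative that tested them, as were 3 of the 4 variant genes. The log2 fold change of none of these 53 genes became positive in any alternative. Lower cluster calls numbered 38 (of 49 tested, genes without overlaps) to 50 (no filter on low counts) over settings with all libraries. Restricting the fit to genes without overlaps left 9517 genes, with 1852 called higher and 1897 lower. The cluster genes called higher numbered 1 without edgeR's robust option and 1 with limma-voom. Leaving out 1 library gave 44 to 49 lower and 0 to 3 higher cluster calls (3 without siControl replicate 3), 3 to 5 lower and 0 higher variant calls, and 2091 to 3178 higher and 2119 to 3216 lower calls over all genes. With 1 library left out, the mean cluster share of counts ranged from 0.816 to 0.898% in siControl and from 0.565 to 0.576% in siMETTL3. Without H1-5, the cluster gene with the highest mean CPM, the mean share was 0.789% in siControl and 0.527% in siMETTL3.

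H4C1 was not called under RLE (FDR 0.0518), upper-quartile (0.0713) or total-count scaling (0.0732), with at least 10 counts in every library (0.0551), without the robust option (0.0536), or by DESeq2 (0.0713) and limma-voom (0.0588). H2BC21 (0.0525) and H2AZ2 (0.0601) lost their calls under upper-quartile scaling, and H4C14 (0.0538) and H2AZ2 (0.0560) under total-count scaling. Both of these scalings gave 5 higher and 1 lower gene on the histone mRNA list and 6 lower chaperone genes, and total-count scaling gave 3 higher and 3 lower cleavage and polyadenylation genes. The causes were not tested. Total-count scaling moved the share of higher calls over all genes from 49.2 to 53.9% and the median of all genes to 0.02.

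With the replicate number as a block, 49 cluster genes and 4 variant genes were lower, 0 were higher, and over all genes 3047 were higher and 3119 lower, with 4 higher cleavage and polyadenylation genes. Same-numbered libraries correlated at 0.040, 0.049 and 0.067 after removal of group means, and differently numbered ones at -0.064 to 0.026. The same-numbered values were small but all higher, and whether the numbers mark a pairing was not tested. Members with few counts, such as H2BC10, H3C3, H1-6 and H3C8, are limited by depth.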
